A study of Danio rerio with 9 samples.

Results

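The comparison described here set zebrafish exposed to 16 µM perfluorobutane sulfonate (PFBS), a short-chain perfluorinated surfactant, against the solvent control. It took in 6 of the study's 9 samples, 3 per group, and every one of the 29280 rows that the authors' deposited table lists for these groups. Polyadenylated RNA of whole AB-strain embryos was sequenced at 96 h after fertilization, and each sample pooled 15 embryos. Controls carried 0.01% DMSO, and the labels do not say whether the PFBS groups carried the solvent too. All groups were taken out of the chorion by hand at 24 h after fertilization, and the exposure solutions were replaced every 24 h. The labels give 37 °C for all groups, which is warm for this species. The remaining 3 samples were exposed to 32 µM PFBS, and their values appear beside those of 16 µM where the same gene was listed.

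Each group has 1 expression value from the authors, and no sample has its own. Levels below are therefore the authors' group FPKM values (fragments normalized to transcript length and to sequencing depth), with no standard deviation, and the depth of each sample is unknown. A difference is a log2 ratio of 16 µM to control, and rose or fell is written only where the authors' q-value, a p-value adjusted over the table, was under 0.05. Loci are those of the zebrafish build danRer7, as the authors' deposited table writes them. In RNA of whole embryos, fewer cells of a type and less RNA per cell cannot be told apart.

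Several of the genes that differed belong to systems whose working is known. The circadian clock is a transcriptional loop in which Clock and Bmal (arntl) proteins activate period, cryptochrome and Rev-erb (nr1d) genes, whose products then repress the loop, and the PAR bZIP factors Dbp and Tef pass its rhythm to other genes; in zebrafish, tissues hold clocks that light can set directly. Immediate early genes are transcribed within minutes of a stimulus without new protein synthesis, and many are also sensitive to glucocorticoids. The aryl hydrocarbon receptor binds planar aromatic ligands and activates genes of the cytochrome P450 family 1.

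Of the 29280 rows in the authors' deposited table, 76 were called, which is 0.26% of the table. The calls split into 33 higher rows (0.113%) and 43 lower rows (0.147%). Among rows that name a single gene, with 1 row kept per gene, 45 of 11947 were called (0.377%), of which 19 rose (0.159%) and 26 fell (0.218%). A further 27 called rows carry no name and 4 carry several names. The changes were mostly small: the median size of the log2 ratio over the 76 called rows was 0.445, the smallest was 0.28, and 14 rows differed at least 2-fold. Large ratios were common among rows that did not pass, since 857 of the 871 rows with a size of 1 or more were not called. Over all genes the median ratio was -0.02, and 38.6% of genes had a ratio above 0. A q-value of 0.0219 is shared by 67 of the called rows in the authors' deposited table, and the other 9 share 0.0385. In what follows a called gene has q = 0.0219 unless 0.0385 is given.

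**Figure D1:**
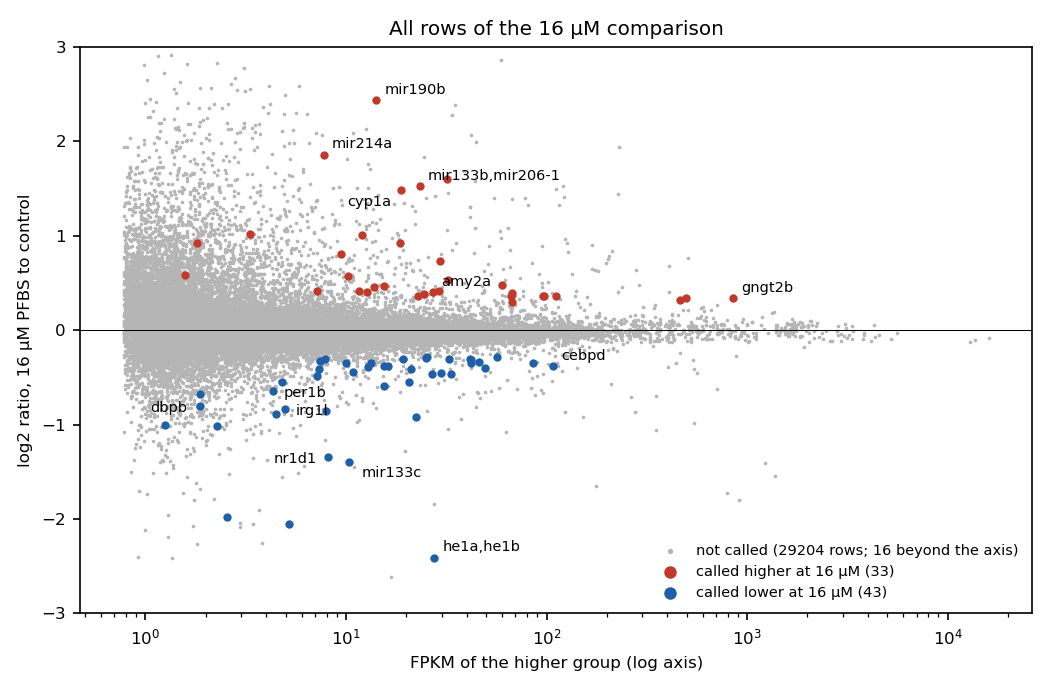
Log2 ratio of 16 µM PFBS to control (vertical axis) against the FPKM of the higher group (horizontal, log axis) for the rows of the authors' deposited table. Each point is 1 row; red points are the 33 rows called higher, blue points the 43 called lower, grey points rows not called, of which 16 lie beyond the vertical range. Grey points spread widely at low FPKM, and the called points from 20 FPKM upward lie mostly within 1 log2 unit of 0.

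Genes of the circadian clock made up 7 of the 26 genes that fell, and no clock gene rose. Of 40 measured clock genes, the 7 that fell were split between 4 of 20 repressors and 3 of 20 activators and outputs. Over all genes 0.218% fell. Among the repressors nr1d1, which encodes Rev-erb alpha (chr3:23779861-23787461), went from 8.11 FPKM in the control to 3.23 FPKM at 16 µM in the authors' deposited table, so that it fell by 60.5%. Its relatives nr1d2a (chr16:53610113-53637078) and nr1d2b (chr19:19388582-19395808) encode forms of Rev-erb beta and fell less steeply. Levels of nr1d2a were 26.9 FPKM in the control and 19.6 FPKM at 16 µM (ratio -0.46), and those of nr1d2b 41.9 and 33.1 FPKM (ratio -0.35), in the authors' deposited table. The period gene per1b (chr7:52277644-52301471) went from 4.35 to 2.81 FPKM, with a deposited ratio of -0.64. All of these act on the repressing side of the loop.

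The called output genes were members of the PAR bZIP family, activators that bind D-box elements. At a low level, dbpb (chr16:15352850-15364788) went from 1.88 to 1.08 FPKM, a ratio of -0.80 in the authors' deposited table. Its paralogue dbpa (chr19:10797299-10818845) went from 7.89 to 6.41 FPKM (ratio -0.30), and tefa (chr12:20241108-20249475) from 32.7 to 26.2 FPKM (ratio -0.31). nfil3-6, a relative of the mammalian repressor that competes for D-box sites, had a ratio of -0.31 and missed the threshold in the authors' deposited table (q = 0.0871). The cryptochrome gene cry3, named after its value was seen, had -0.32 (q = 0.149) there.

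The other clock genes that were measured had deposited ratios on both sides of 0 and did not pass. Chosen after their values were seen, the activators arntl1a, arntl1b and clocka had ratios of 0.03, 0.11 and 0.14 in the authors' deposited table, and npas2 had 0.24, all with q = 0.998. The light-responsive period gene per2 had -0.08 and the photolyase-related cry5 had -0.41, both with the same q. The median was -0.095 over the repressors and 0.01 over the activators and outputs, against -0.02 over all genes. At a recovered unadjusted p under 0.05, which 1.83% of all genes reach (0.762% higher and 1.07% lower), 9 clock genes were lower and 0 higher. The recovered p is an upper bound, and the 28857 rows that share q = 0.998 cannot fall under 0.05. Reaching that level therefore means a q below 0.998, and not reaching it does not show a p-value above 0.05. In the list of light-induced and DNA repair genes, which shares tefa and several cryptochromes with the clock lists, tefa was the only called gene of 24 and cry-dash had -0.29 (q = 0.253 in the authors' deposited table). Over all genes 0.377% were called.

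A further group of genes that fell encodes transcription factors and signalling regulators that respond quickly to stimuli. nr4a1, an orphan nuclear receptor of the immediate early class (chr23:32389911-32396422), went from 21.1 to 15.9 FPKM with a ratio of -0.41 in the authors' deposited table. The phosphatase gene dusp1, whose product switches off MAP kinases (chr14:19660236-19663608), went from 46.2 to 36.5 FPKM, a deposited ratio of -0.34. The flow-responsive endothelial factor klf2a (chr22:16044380-16047078) went from 41.4 to 33.4 FPKM, a ratio of -0.31 with q = 0.0385 in the authors' deposited table. These 3 were the called members of 32 measured immediate early genes, none of which was called higher. The share called lower over all genes was 0.218%.

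Most of the uncalled immediate early genes also had ratios below 0, 24 of 29, but none of them passed. Of the 29, 5 had a ratio above 0, where 38.6% of all genes did. The zinc finger factor egr3, named after its value was seen, had -0.36 (q = 0.715 in the authors' deposited table). Named after their values were seen, the classical members fosab, jun and egr1 had 0.13, -0.06 and -0.17, each with q = 0.998. The list's median was -0.095 against -0.02 over all genes. At a recovered p under 0.05 the list held 4 lower and 0 higher genes, beside 1.07% and 0.762% of all genes.

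Stress-response genes that glucocorticoids are known to induce overlap with that set. gadd45ba, a growth arrest and DNA damage response gene (chr11:6538812-6540414), went from 49.5 to 37.5 FPKM (ratio -0.40 in the authors' deposited table). cebpd, a bZIP factor of the acute phase response (chr24:37059252-37061571), went from 108 to 82.7 FPKM (ratio -0.38). With dusp1 these were the called members of 20 measured glucocorticoid targets, beside 0.218% of all genes called lower. The list's median was -0.085, with 5 lower and 0 higher genes at a recovered p under 0.05, beside 1.07% and 0.762% of all genes. fkbp5, the classical reporter of glucocorticoid receptor activity in mammals, was named after its value was seen and had -0.24 (q = 0.375 in the authors' deposited table), and the receptor gene nr3c1, likewise named, had -0.03.

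Regulators outside those lists fell by like amounts. The kinase gene sik1, whose product restrains CREB-dependent transcription (chr9:9168405-9178227), went from 16.1 to 12.4 FPKM in the authors' deposited table, a ratio of -0.38. The alpha-arrestin gene arrdc3b, a trafficking adaptor related to mammalian ARRDC3 (chr10:45263620-45273587), went from 25.1 to 20.5 FPKM, a ratio of -0.29 with q = 0.0385. A row pooling the Hsp90 genes hsp90aa1.1 and hsp90aa1.2 (chr20:54322493-54351332) went from 85.6 to 67.2 FPKM, a ratio of -0.35 in the authors' deposited table. In zebrafish hsp90aa1.1 is the muscle form that folds myosin. Its partner in myosin folding, unc45b, had -0.26 (q = 0.159 in the authors' deposited table). Of the 39 measured heat shock and chaperone genes that have a row of their own none was called, beside 0.377% of all genes. At a recovered p under 0.05, 1 was higher and 4 lower, beside 0.762% and 1.07% of all genes. hsp70l had -0.49 (q = 0.477).

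Photoreceptor genes rose, and all 4 that did belong to the first steps of light detection. opn1sw2, the opsin of blue-sensitive cones (chr11:26406335-26408962), went from 372 to 465 FPKM, a ratio of 0.32 in the authors' deposited table. The cone transducin gamma genes gngt2b (chr12:3804707-3893083) and gngt2a (chr3:23384000-23387375) went from 676 to 855 FPKM (ratio 0.34) and from 51.6 to 66.3 FPKM (ratio 0.36) there. Their rod counterpart gngt1 (chr19:41817354-41820087) went from 75.6 to 97.0 FPKM (ratio 0.36). The locus of gngt2b is shared with a row for lsm12b, an LSM domain gene, whose deposited ratio was 0.

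Most photoreceptor genes did not pass the test. Among 21 measured cone genes 3 rose, the median was 0.12, and 6 higher and 1 lower reached a recovered p under 0.05. Among 22 rod genes 1 rose and the median was 0. Over all genes 0.159% rose, and 0.762% were higher and 1.07% lower at a recovered p under 0.05. Opsins chosen after their values were seen show the spread: in the authors' deposited table the green opsin opn1mw1 had 0.25 (q = 0.188), opn1mw2 had -0.29 (q = 0.810), the ultraviolet opsin opn1sw1 had 0.18 (q = 0.998) and rhodopsin stood at 962 FPKM in both groups. Likewise named, the opsin kinase gene grk1b had 0.23 (q = 0.316) and the guanylate cyclase activator gene guca1d -0.46 (q = 0.998). None of the 20 genes of the retinoid cycle and pigment epithelium was called or reached a recovered p under 0.05, and their median was 0, with rdh12 at 0.18 and pmelb at -0.20. None of 28 lens genes was called or reached that p, with a median of -0.025. The share called over all genes was 0.377%.

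The cytochrome P450 gene cyp1a (chr18:4974675-4985563) went from 6.73 to 18.9 FPKM, a ratio of 1.49 in the authors' deposited table. Rows named for microRNAs and a second row at its own locus apart, no named gene that rose had a larger ratio. The related cyp1b1 (chr13:42664265-42673197) went from 1.05 to 1.57 FPKM, a ratio of 0.58. Both are targets of the aryl hydrocarbon receptor, and they were the called members of that list's 14 measured genes. The share called higher over all genes was 0.159%.

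Other measured members of the receptor's list did not pass. The forkhead gene foxq1a, named after its value was seen, had a ratio of 0.32 (q = 0.0987 in the authors' deposited table). Named after their values were seen, the receptor's repressor ahrra went from 0.966 to 1.38 FPKM (ratio 0.51), the receptor ahr2 had 0.14, cyp1d1 had 0.10 and the target tiparp had -0.04, each with q = 0.998. The list's median was 0.12. At a recovered p under 0.05 the list held 3 higher and 0 lower genes, beside 0.762% and 1.07% of all genes.

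A second row at exactly the cyp1a locus carries the name mpx, the myeloperoxidase gene of neutrophils, and went from 10.5 to 31.8 FPKM (ratio 1.60 in the authors' deposited table). Rows named mpx on chromosome 10, chr10:6719199-6834447, had ratios of 0.07 and -0.17 with q = 0.998. At 32 µM against control the row at the cyp1a locus had 0.89 and cyp1a 0.82, both with q = 0.00521. Between the doses they had -0.71 (q = 0.0688) and -0.67 (q = 0.0194). Which gene that row measures was not tested. It counts among the 45 called genes and is the only call of the neutrophil list. The 9 other measured neutrophil genes had ratios from -0.28 to 0.12, among them lect2l at -0.28. None was called or reached a recovered p under 0.05, beside 0.377% called over all genes. Lysozyme, lyz, chosen after its value was seen, had -0.05 (q = 0.998 in the authors' deposited table).

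Called genes of other cytochromes and conjugation enzymes moved in both directions. cyp3a65, a CYP3A enzyme of gut and liver (chr1:60208646-60218578), went from 17.8 to 22.8 FPKM (ratio 0.36 in the authors' deposited table). The sulfotransferase gene sult6b1 (chr11:44488201-44501316) went from 51.6 to 67.6 FPKM (ratio 0.39). The carboxylesterase gene ces3 (chr18:17077437-17085479) went from 41.9 to 33.6 FPKM (ratio -0.32). Among 50 measured genes of this list these were the called ones, beside 0.377% called over all genes. The median was 0.025. At a recovered p under 0.05, 5 were higher and 2 lower, beside 0.762% and 1.07% of all genes. Chosen after its value was seen, cyp2k18 had 0.53 (q = 0.159 in the authors' deposited table). None of 32 antioxidant genes of the Nrf2 pathway was called and 1 reached that p, hmox1a at 0.40 (q = 0.276).

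**Figure D2:**
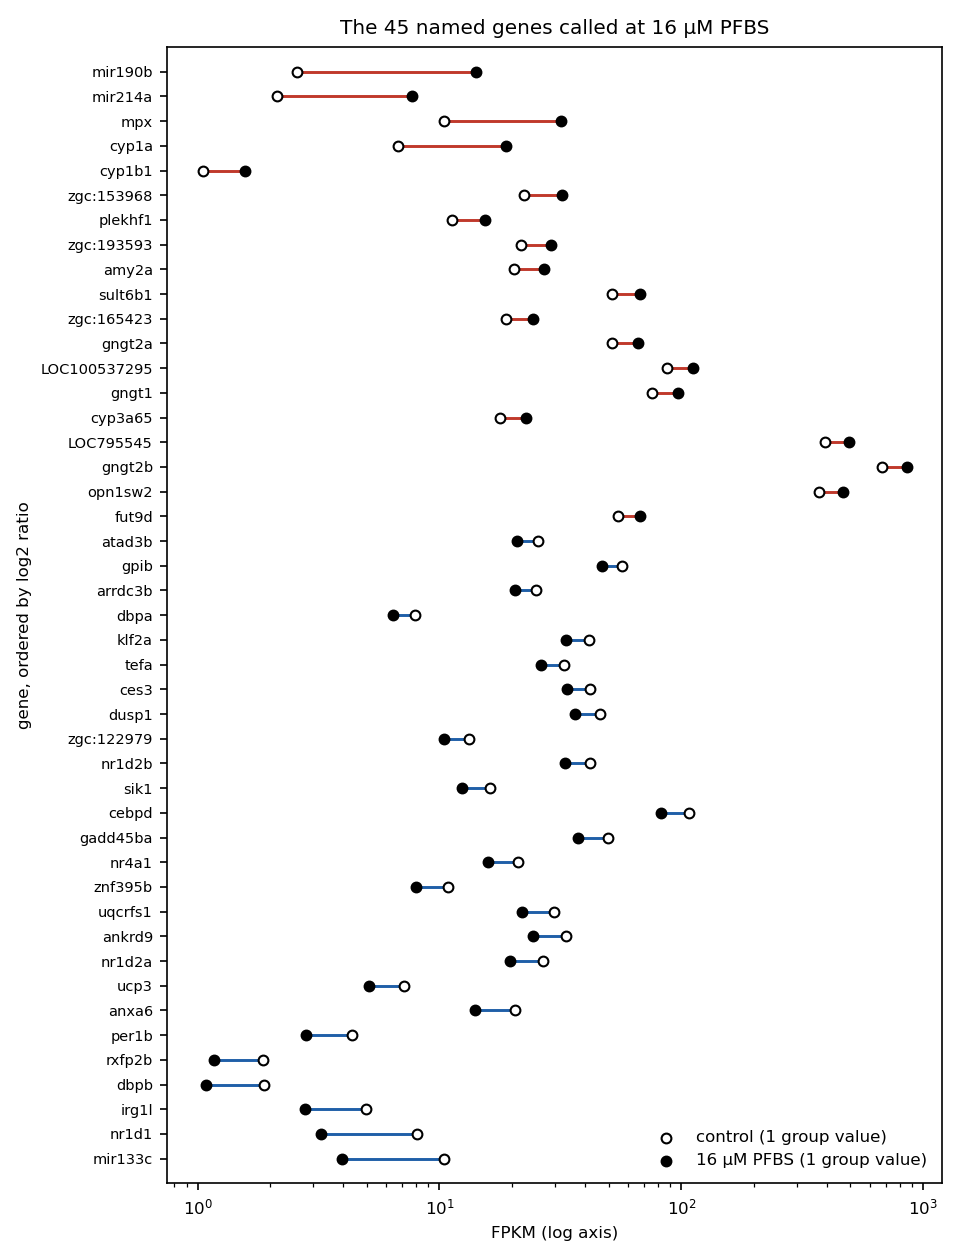
FPKM of the control (open circles) and of 16 µM PFBS (filled circles) on a log axis for the 45 named genes called in the authors' deposited table, ordered by log2 ratio. Each circle is 1 group value with no error; red lines mark genes that rose and blue lines genes that fell. Most lines are short beside the range of levels, and the long ones belong to mir190b, mir214a, mpx, cyp1a, nr1d1 and mir133c.

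Genes of energy metabolism that were called all fell. ucp3, an uncoupling carrier of the inner mitochondrial membrane (chr10:37894315-37900777), went from 7.16 to 5.10 FPKM (ratio -0.49 in the authors' deposited table). uqcrfs1, the Rieske iron-sulfur subunit of complex III (chr7:46455554-46458355), went from 29.9 to 21.9 FPKM (ratio -0.45). atad3b, a mitochondrial membrane ATPase gene now named atad3 (chr22:44287-49419), went from 25.5 to 21.0 FPKM, and the glycolytic gene gpib, a glucose-6-phosphate isomerase (chr13:51999211-52021095), from 56.9 to 46.9 FPKM. Both of the last had a ratio of -0.28 and q = 0.0385 in the authors' deposited table.

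Each list below held 1 called gene, where 0.377% of all genes were called. uqcrfs1 was the only called gene of 97 measured respiratory chain genes, whose median was 0.02; the complex I subunit gene ndufc1, listed under a clone name, had 0.26 (q = 0.178 in the authors' deposited table). ucp3 was the only called gene of 46 mitochondrial carriers, with a median of -0.045 and 3 lower genes at a recovered p under 0.05. Among 43 genes of hypoxia and glycolysis gpib alone was called, and the median was -0.04. The 6 unnamed rows of the mitochondrial genome had ratios from -0.09 to 0.56 in the authors' deposited table, all with q = 0.998.

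Pancreatic amylase amy2a (chr2:15433345-15447553) went from 20.4 to 27.1 FPKM, a ratio of 0.40 in the authors' deposited table. It was the only called gene of 10 in the exocrine pancreas list. The 9 others had ratios from 0.05 to 0.17, all with q = 0.998. All were above 0, where 38.6% of all genes had a ratio above 0. None of 16 gut epithelium genes was called, and their median was 0.13. Beside 0.762% of all genes, 3 of the 16 were higher at a recovered p under 0.05. Among these the cathepsin gene ctsl.1 had 0.41 (q = 0.171) and the ileal bile acid binding protein gene fabp6 went from 48.2 to 59.7 FPKM (ratio 0.31, q = 0.202) in the authors' deposited table. In the liver list ces3 was the only called gene of 25, the median was -0.06, and the copper carrier ceruloplasmin, cp, had -0.21 (q = 0.480). Over all genes 0.377% were called.

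The largest fall among called rows belonged to hatching enzymes. The row that pools he1a and he1b, metalloproteases with which the hatching gland softens the chorion (chr22:14195751-14259431), went from 27.5 FPKM in the control to 5.17 FPKM at 16 µM in the authors' deposited table, a ratio of -2.41. The same locus holds rows for the aldehyde oxidase genes aox5 and aox6, with ratios of 0.06 and 0.07. The largest fall among unnamed called rows, chr12:17700526-17701814, went from 5.17 to 1.25 FPKM (ratio -2.05) and begins 14125 bases beyond ctslb, a cathepsin gene used as a hatching gland marker. ctslb itself went from 1.01 to 0.306 FPKM (ratio -1.74, q = 0.674 in the authors' deposited table). On the other side zgc:174153, 314528 bases away, went from 0.914 to 0.173 FPKM (ratio -2.40, q = 0.757). These neighbours were chosen after their values were seen.

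All 6 rows of that stretch of chromosome 12, from ctslb to zgc:174153, had ratios below 0. The ends of the stretch were set after their values were seen, so this count is not independent of that choice. The remaining 3 unnamed rows stood at -2.61, -1.84 and -0.40 without passing. None of the 5 hatching gland genes with a row of their own was called, beside 0.377% of all genes. Of the 5, ctslb alone reached a recovered p under 0.05. The others lay near 0: klf17, a transcription factor of the gland and of blood, had 0.09 and the secretory factor xbp1, named after its value was seen, had -0.07 in the authors' deposited table. In the table for 32 µM the he1a and he1b row stood at 27.7 FPKM in the control and 11.8 FPKM with PFBS, a ratio of -1.23 (q = 0.0344). Both tables use the same control samples.

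A row of ammonia channel genes and the gene irg1l were also called. The row of the Rh glycoproteins rhcg2a and rhcgl1, names that both now stand for the ammonia channel gene rhcgl1 (chr6:36160268-36170983), went from 5.39 to 9.45 FPKM (ratio 0.81 in the authors' deposited table). Its relative rhcgb, the ammonia channel of skin ionocytes, had 0.22 (q = 0.998), and none of the 12 measured ionocyte genes was called or reached a recovered p under 0.05. irg1l, a relative of the itaconate-producing Irg1 of mammalian macrophages (chr14:11625680-11629184), went from 4.96 to 2.79 FPKM, a ratio of -0.83. Over all genes 0.377% were called, a share at which lists of such length would mostly hold no call. The 17 other measured genes of macrophages and microglia had ratios from -0.60 to 0.20 and none was called. Of these the cathepsin gene ctsba, at -0.21 (q = 0.451 in the authors' deposited table), alone reached a recovered p under 0.05.

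The remaining called genes that fell have varied roles. rxfp2b, a receptor of the relaxin and insulin-like peptide family (chr10:34762923-34896063), went from 1.87 to 1.17 FPKM (ratio -0.68 in the authors' deposited table). anxa6, a calcium-dependent membrane-binding annexin (chr14:51557350-51620213), went from 20.5 to 14.0 FPKM (ratio -0.55). ankrd9, an ankyrin repeat gene (chr17:29335668-29336841), went from 33.4 to 24.3 FPKM (ratio -0.46). None of these 3 belongs to a list described here. The zinc finger gene znf395b (chr20:34762350-34779225) went from 10.9 to 8.0 FPKM (ratio -0.44), and zgc:122979 (chr21:5408444-5413347) from 13.3 to 10.4 FPKM (ratio -0.35 in the authors' deposited table).

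Of the remaining genes that rose, several lack a descriptive name. zgc:153968 (chr3:21438810-21443729) went from 22.3 to 32.2 FPKM (ratio 0.53 in the authors' deposited table), and plekhf1, an endosomal protein gene with PH and FYVE domains (chr7:47585069-47586479), from 11.2 to 15.5 FPKM (ratio 0.47). zgc:193593 (chr17:24745921-24747362) went from 21.7 to 29.0 FPKM (ratio 0.42, q = 0.0385), and zgc:165423 (chr3:39534798-39544749) from 18.9 to 24.4 FPKM (ratio 0.38). The fucosyltransferase gene fut9d (chr8:14020441-14022437) went from 54.6 to 67.2 FPKM (ratio 0.30 in the authors' deposited table), the smallest rise called. A pair of RNAs that RefSeq classes as long non-coding stood high: LOC795545, now si:dkey-238c7.12 (chr18:7029369-7031332), went from 391 to 495 FPKM (ratio 0.34), and LOC100537295, now si:dkey-33c14.3 (chr2:363095-365053), from 86.8 to 111 FPKM (ratio 0.36 in the authors' deposited table).

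Some of the widest called ratios belong to rows that carry the name of a microRNA. Of 54 such rows 4 were called (7.41%, against 0.26% of all rows). They measure polyadenylated RNA from the locus, such as a primary transcript, and not the mature microRNA. mir190b (chr16:19767856-19769618) went from 2.58 to 14.1 FPKM, a ratio of 2.44 and the largest rise called in the authors' deposited table. mir214a (chr20:14733880-14839571) went from 2.13 to 7.73 FPKM (ratio 1.86), while the dynamin gene dnm3a, whose row has the same locus, stood at 1.88 and 1.91 FPKM (ratio 0.02).

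The other called rows of this kind name microRNAs of muscle. mir133b and mir206-1, pooled in 1 row (chr20:19615329-19617632), went from 8.06 to 23.3 FPKM (ratio 1.53 in the authors' deposited table). mir133c (chr17:5724892-5726229) went from 10.4 to 3.94 FPKM (ratio -1.40). The muscle rows therefore moved in opposite directions. A row pooling mir1-1 and mir133a-2, chosen after its value was seen, had -0.04 (q = 0.998). Over the 54 rows the median size of the ratio was 0.155 and the median FPKM of the higher group 5.38.

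The 27 unnamed called rows, 12 higher and 15 lower, are 0.164% of the 16497 unnamed rows. Their sizes ranged from 0.30 to 2.05. After the row beside ctslb the next fall was chr5:40242302-40245854, which went from 2.55 to 0.646 FPKM (ratio -1.98, q = 0.0385 in the authors' deposited table). The largest rises were chr3:19276209-19352499, from 1.65 to 3.32 FPKM (ratio 1.02), and chr4:34839770-34840275, from 5.98 to 12.04 FPKM (ratio 1.01, q = 0.0385). Their named neighbours were not called: znhit1, 30438 bases before the chromosome 5 row, had 0.12, and zgc:112320, 21829 bases after the chromosome 3 row, had -0.16 in the authors' deposited table. On chromosome 4, 4 of 1044 listed rows were called, beside 76 of 29280 over the whole table, and all 4 were unnamed. Every one of the 25 chromosomes held a called row. Chromosome 3 held the most, 7, a count that takes no account of how many rows each chromosome lists.

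**Figure D3:**
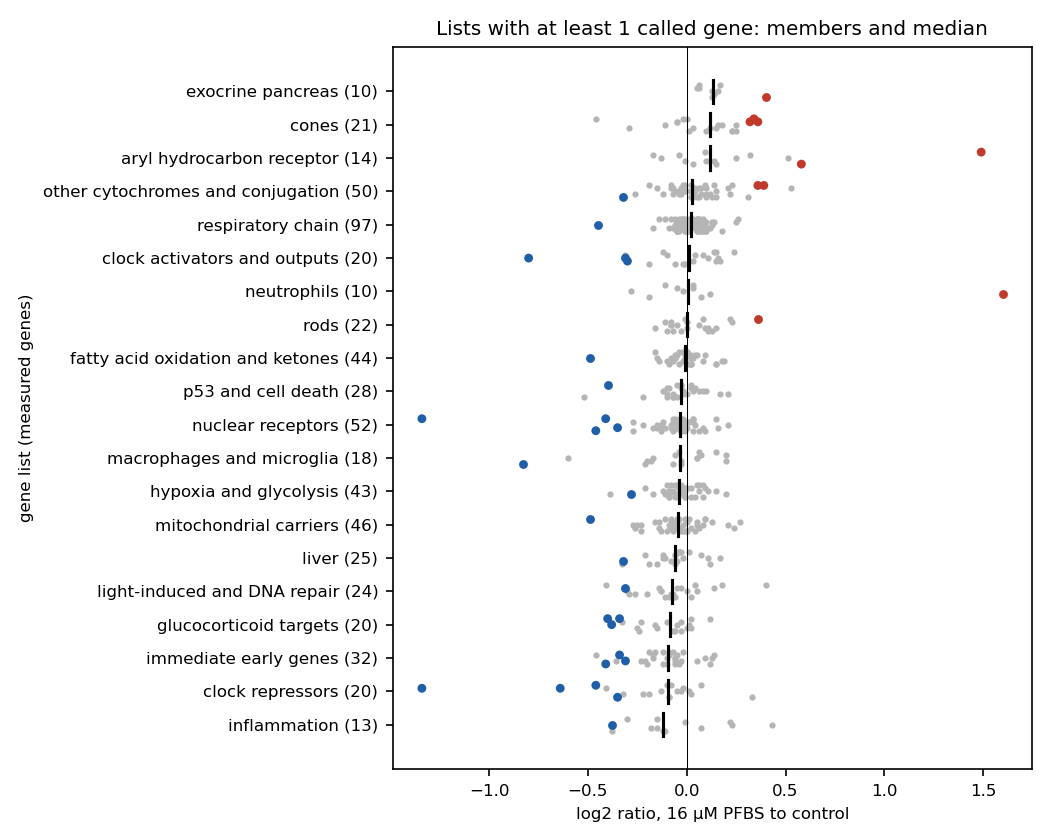
Log2 ratios of 16 µM PFBS to control for the measured genes of the 20 gene lists that hold at least 1 called gene, ordered by list median (black bar); the number of measured genes is in brackets. Red points are genes that rose, blue points genes that fell, and grey points genes that did not pass. The medians lie between -0.12 for inflammation and 0.135 for the exocrine pancreas, and a few coloured points stand far from them.

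Of the 80 gene lists examined, 60 held no called gene, and 34 of these had no gene at a recovered p under 0.05 either. With 0.377% of all genes called, most lists of these lengths would hold no call. The absence of a call therefore says little about a tissue or pathway. Among the 56 lists without a call that had at least 8 measured genes, the medians lay between -0.11 and 0.13. A total of 40 of the 60 lists had a median below 0, which is also the side of the median over all genes. A few called genes stand in several lists, as 202 of the 2063 listed genes do.

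Among rows that name 1 gene, muscle genes held the highest levels. The actin gene actc1b stood at 16047 and 15181 FPKM (ratio -0.08 in the authors' deposited table). The calcium-buffering parvalbumins pvalb2 and pvalb1 had -0.10 and -0.12, and the myosin light chain gene mylz3 had -0.09. The apolipoprotein gene apoa2, also among the 5 highest, had -0.03. None of 26 measured fast muscle genes was called, beside 0.377% of all genes. At a recovered p under 0.05, 1 of the 26 was lower, pvalb3 at -0.34 (q = 0.227). The list's median was -0.07. Of the 26 ratios 23 were below 0 and 3 above, where 38.6% of all genes had a ratio above 0. None of 12 slow muscle genes was called or reached that p (median -0.015), nor did any of 14 heart genes (median -0.03), with the atrial myosin gene myh6 at -0.19 in the authors' deposited table.

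Skeleton and matrix genes gave no call either, where 0.377% of all genes were called. In the collagen family none reached a recovered p under 0.05. Of 24 genes 22 had ratios below 0 and 1 had a ratio above 0, where 38.6% of all genes were above 0. The family had a median of -0.04 and a lowest value of -0.17 for col28a1a in the authors' deposited table. Cartilage (15 genes), notochord (14), bone (14) and fin fold and tendon (16) had medians of -0.04, -0.06, -0.03 and -0.02, and no gene of these lists reached a recovered p under 0.05. The largest ratio among them was that of the bone matrix gene bglap, from 0.518 to 1.04 FPKM (ratio 1.01, q = 0.998 in the authors' deposited table).

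Blood genes held some of the widest ratios that did not pass. The embryonic alpha globin gene hbae1 went from 709 to 461 FPKM (ratio -0.62, q = 0.159 in the authors' deposited table), the lowest ratio among uncalled genes with at least 10 FPKM. No other of the 17 erythrocyte genes reached a recovered p under 0.05, and the list's median was -0.06. In the list of thrombocytes and coagulation all 13 ratios were below 0, where 38.6% of all genes had a ratio above 0. The list had a median of -0.06 and none at that p, the coagulation factor gene f7i having -0.44 (q = 0.998). The complement list had a median of -0.11 over 11 genes and 2 lower at that p, 1 of them the adipsin gene cfd at -0.26 (q = 0.178 in the authors' deposited table). In the inflammation list, 13 genes with a median of -0.12, cebpd alone was called, beside 0.377% of all genes.

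Neural genes lay close to 0. No gene was called among 26 of neurons, 28 of transmitter systems and 24 of glia, beside 0.377% of all genes. None reached a recovered p under 0.05, and the medians were -0.02, -0.015 and 0.01. The synaptotagmin gene syt1a had -0.14, the dopamine beta-hydroxylase gene dbh -0.32 and the glial filament gene gfap -0.14, each with q = 0.998 in the authors' deposited table. Of 27 pituitary and hypothalamic genes none was called and 1 was lower at that p, the gonadotropin-releasing hormone gene gnrh3, from 7.57 to 4.08 FPKM (ratio -0.89, q = 0.743). None of the 9 measured thyroid axis genes reached that p, with a median of 0.02; the thyroid hormone target klf9 had -0.25 in the authors' deposited table.

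Pigment, skin and vessel lists were likewise without a call, beside 0.377% called over all genes. The melanosome gene pmela had -0.20 (q = 0.729) among 14 melanophore genes, the pteridine gene gch2 -0.23 (q = 0.998) among 15 xanthophore genes, and the purine gene pnp4a -0.23 (q = 0.584) among 14 iridophore genes in the authors' deposited table. The 3 pigment lists had medians of -0.075, -0.03 and -0.045, with 1, 1 and 2 lower genes at a recovered p under 0.05 and 0 higher. In the epidermis, with 1 higher gene of 16 at that p, the parvalbumin gene pvalb8 had 0.25 (q = 0.171) and the keratin gene krt4 -0.11. Among 20 endothelial genes none reached that p, and vegfaa, the vascular growth factor, had -0.39 (q = 0.998 in the authors' deposited table).

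Lipid genes had 1 call over all their lists, ucp3, which stands in the list of fatty acid oxidation. Over all genes 0.377% were called. No gene of cholesterol synthesis and uptake (29 measured), fatty acid and triglyceride synthesis (34) or lipid carriers (32) was called. At a recovered p under 0.05 these lists held 3, 1 and 3 higher genes with 0 lower, beside 0.762% and 1.07% of all genes. Cholesterol synthesis was represented at that level by hmgcra at 0.22 (q = 0.627) and the LDL receptor gene ldlra at 0.21 (q = 0.757) in the authors' deposited table. The desaturase gene fads2 had 0.32 (q = 0.301) and the lipocalin gene apoda.2 had 0.29 (q = 0.236). Of the 13 bile acid genes none was called, 1 higher and 1 lower reached that p, and the repressor nr0b2a, also called Shp, had -0.27 (q = 0.801 in the authors' deposited table).

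Housekeeping families gave narrow ranges of ratios. None of 145 genes of the cytosolic and mitochondrial ribosomes was called, where 0.377% of all genes were. None reached a recovered p under 0.05 either, and the 80 cytosolic ones ranged from -0.07 to 0.14 around a median of 0.03. The 48 proteasome genes had a median of -0.015 and ranged from -0.19 to 0.11, with none at that p and the immunoproteasome gene zgc:92791, now psmb10, lowest in the authors' deposited table. Among 34 genes of the unfolded protein response none was called and 2 lower reached that p; chac1 had -0.24 (q = 0.227) and the chaperone hspa5, also called BiP, -0.19 (q = 0.811). In the cell cycle list 48 genes had a median of -0.01 with none called or at that p, and in the p53 list the cell cycle inhibitor cdkn1a had -0.52 (q = 0.123 in the authors' deposited table), beside the called gadd45ba.

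Of the 200 measured solute transporters none was called, beside 0.377% of all genes. At a recovered p under 0.05, 0 were higher and 4 lower, beside 0.762% and 1.07% of all genes. Among the 4 were the monocarboxylate transporter genes slc16a9a at -0.40 (q = 0.477) and slc16a9b at -0.29 (q = 0.276) in the authors' deposited table. The hox cluster (38 genes), developmental signalling (39) and the retinoic acid pathway (21) had medians of -0.005, -0.03 and -0.03 and no call, with 0 genes, 1 lower and 1 higher at that p. Their widest named members were hoxa13a at 0.33, fgf8a at -0.24 and crabp2a at 0.19. In the nuclear receptor family 4 of 52 were called, the 3 Rev-erb genes and nr4a1, all lower, beside 0.218% of all genes. These are the same genes already counted in the clock and immediate early lists.

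The genes just outside the threshold resemble in size those just inside. Inside, gpib and atad3b had -0.28 and arrdc3b -0.29, each with q = 0.0385. Outside, the diamine oxidase gene aoc1 went from 5.78 to 7.52 FPKM (ratio 0.38, q = 0.0563 in the authors' deposited table). The receptor gene gpr186, now gpr3, had -0.54 (q = 0.0723) and plac8.1 had 0.29 (q = 0.0723). After nfil3-6 came zgc:110340, now tcima, at -0.29 and the spliceosomal gene snrpe at 0.27, both with q = 0.0987 in the authors' deposited table.

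Uncalled genes with at least 10 FPKM in 1 group also reached wide ratios. Above 0 in the authors' deposited table, zswim6 and ascc1 each had 0.74, the 7SK RNA gene rn7sk had 0.60 and thap1 had 0.53, all with q = 0.998, and si:dkey-7c18.24 had 0.56 (q = 0.410). Below 0 after hbae1 stood fzd6 at -0.57 (q = 0.998), a row named mir21-1 at -0.51 (q = 0.458) and ctnna2 at -0.40 (q = 0.998). Several of these loci are long or short in the extreme: fzd6 is listed over 940582 bases and rn7sk over 322.

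Over the rows of the table the ratio varied with the length of the locus. Rows with loci under 300 bases had a median ratio of 0.28, those of 300 to 500 bases 0.26 and those of 500 to 1000 bases 0.10, while rows of 20000 bases or more stood at -0.02. Rows under 1 FPKM in both groups had a median of 0.15, and those of 10 to 20 FPKM -0.02. No row under 500 bases or under 1 FPKM was called in the authors' deposited table. The share called was 0.0772% among rows of 1 to 2 FPKM and 0.886% among those of 50 to 100 FPKM, and the smallest size called was 0.58 in the first of these classes and 0.28 in the second. The part of locus length in the ratios was not tested.

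**Figure D4:**
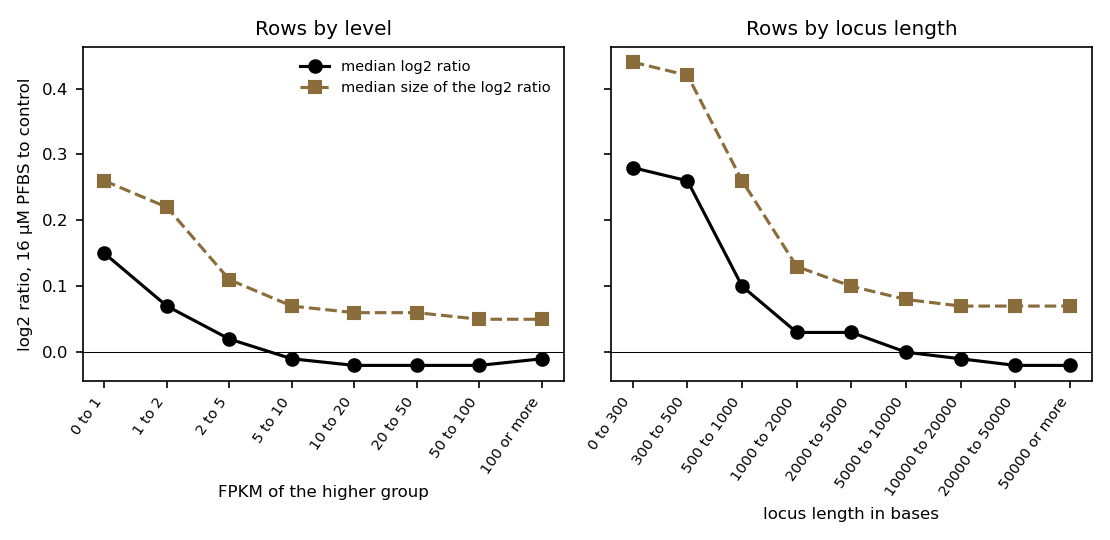
Median log2 ratio of 16 µM PFBS to control (black circles) and median size of the ratio (brown squares) over the rows of the authors' deposited table, by FPKM of the higher group (left) and by locus length in bases (right). Both measures are highest for short loci and low levels; the median ratio goes from 0.28 under 300 bases to -0.02 at 50000 bases or more.

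Most of the called genes are listed in the authors' other deposited tables too, and their values stand here side by side. Named rows were matched by name and overlapping locus, so a pair of rows need not measure the same transcript. The comparison of 32 µM with control shares the control samples, and that of 32 with 16 µM shares the 16 µM samples, so they are not independent of the 16 µM ratios. As background, 1.83% of all rows were called at 32 µM against control (0.959% higher and 0.87% lower) and 0.329% at 32 against 16 µM (0.233% higher and 0.096% lower). The Rev-erb gene nr1d1 had -1.34 at 16 µM and -1.51 at 32 µM (q = 0.00521), with -0.18 between the doses (q = 0.999 in the authors' deposited table). per1b had -0.64 and -0.80, dbpb -0.80 and -0.95, and nr1d2b -0.35 and -0.53, each against control. Between the doses none of them was called (q = 0.999, 0.999 and 0.575). By contrast nr1d2a had -0.46 at 16 µM and -0.06 at 32 µM (q = 0.774), and 0.40 between the doses (q = 0.0194 in the authors' deposited table).

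The quickly responding genes were listed nearer 0 at 32 µM than at 16 µM in several cases. nr4a1 had -0.41 at 16 µM and 0.01 at 32 µM (q = 0.981), klf2a -0.31 and 0.06 (q = 0.741), and cebpd -0.38 and -0.11 (q = 0.441) in the authors' deposited tables. sik1 had -0.38 at 16 µM and 0.19 at 32 µM (q = 0.0215), a fall and a rise. gadd45ba and dusp1 stayed below 0 and were called at both doses, with -0.28 (q = 0.00521) and -0.18 (q = 0.0319) at 32 µM in the authors' deposited table.

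For the genes that rose, the 32 µM ratio was larger in some and smaller in others. cyp1a had 1.49 at 16 µM and 0.82 at 32 µM (q = 0.00521), and cyp1b1 had 0.58 and 0.24 (q = 0.619) in the authors' deposited tables. cyp3a65 had 0.36 and 0.54, and amy2a 0.40 and 0.58, both with q = 0.00521 at 32 µM. Between the doses cyp1a had -0.67 (q = 0.0194), and cyp1b1, cyp3a65 and amy2a were not called (q = 0.999, 0.772 and 0.787). Photoreceptor genes at 32 µM were not called: opn1sw2 had 0.10 (q = 0.431), gngt2b 0.15 (q = 0.228), gngt1 0.17 (q = 0.147) and gngt2a 0.22 (q = 0.0608) in the authors' deposited table. None of these 4 was called between the doses either, opn1sw2 having -0.23 (q = 0.0688).

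The microRNA-named rows followed no common order over the doses. mir190b had 2.44 at 16 µM and 0.08 at 32 µM (q = 0.957), with 14.1 and 3.27 FPKM at the respective doses in the authors' deposited tables. mir133b and mir206-1 had 1.53 at 16 µM and 2.84 at 32 µM (q = 0.00521), where the row stood at 58.5 FPKM. Between the doses that row was not called, with 1.48 (q = 0.218). mir133c had -1.40 and -1.45 (q = 0.00521). For mir214a no row was matched at 32 µM against control, and between the doses it had -1.75 (q = 0.0194 in the authors' deposited table).

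**Figure D5:**
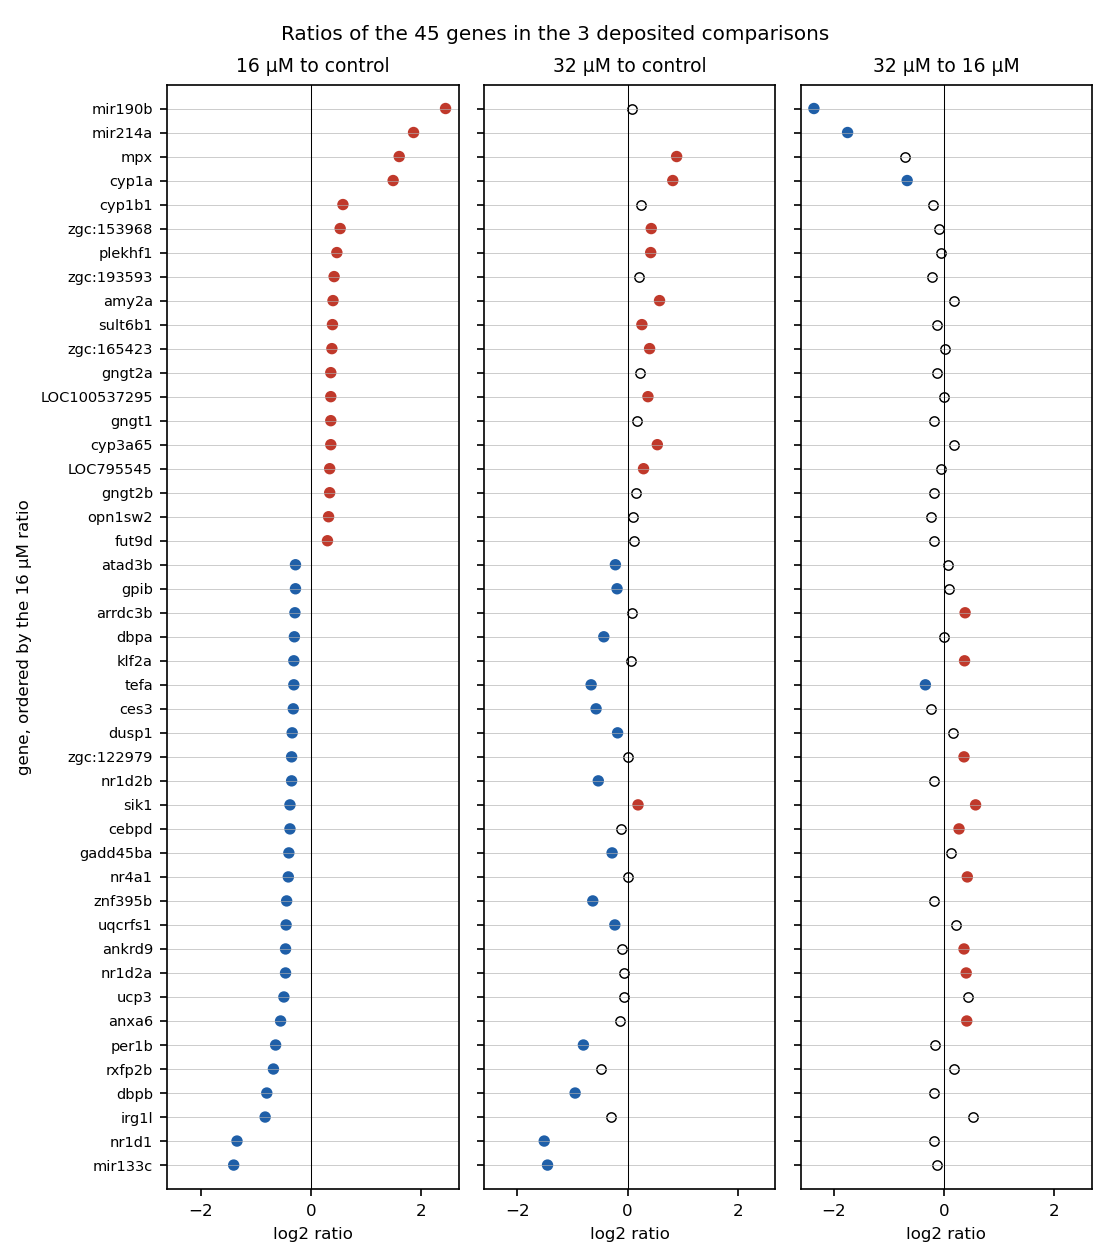
Log2 ratios of the 45 genes called at 16 µM in each of the authors' deposited tables, with 16 µM to control (left), 32 µM to control (middle) and 32 µM to 16 µM (right), ordered by the left panel. Filled points have q under 0.05 (red higher, blue lower) and open points do not; the tables share the control or the 16 µM samples, and a missing point means that no value was used. nr1d1 and mir133c lie far left in both the left and the middle panel, and mir190b lies near 0 in the middle panel.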

How the data were processed

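Per the labels' protocols, stranded paired-end libraries were made from polyadenylated RNA of whole embryos. Cufflinks and the build danRer7 were used, per the submitters' processing notes. Which aligner, gene annotation and statistical test the authors used, and in which versions, is not given in the sources used here. The authors deposited, for each pair of groups, the log2 of each group's FPKM, a log2 ratio and a q-value, per the file headers. The tables hold no value per sample, so depth is unknown and every call rests on the authors' q-value of 3 samples against 3. Nothing in the labels ties a sample to an experiment, and p-values measure only the spread between these samples, which may be technical. The deposited ratio equals 16 µM minus control to within 0.01 on every row, and calls are exactly the rows with q under 0.05.

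FPKM was computed from the deposited log2 values with no pseudocount. Unadjusted p-values were recovered by undoing the Benjamini-Hochberg adjustment of the deposited q-values, which gives upper bounds, the smallest 5e-05. The step was tested on simulated data. For the 28857 rows tied at q = 0.998 the upper bound carries no information on their own p-values. Where a gene had several rows, the row with the highest mean level was kept. Of 11968 gene names 10601 were current RefSeq symbols of GRCz12tu and 1286 were synonyms; that annotation served for names alone. Named genes were every called gene; the 2 members of each list with the smallest q, ties by size; the 6 genes just above the threshold; the 5 highest levels; and the 5 largest uncalled rises and falls with at least 10 FPKM, and of unnamed called rows the 2 largest rises and falls. The comparison, the named-gene rule and the 80 gene lists were chosen with earlier results of these data known. Lists are described by counts and medians, with no test. Alternative thresholds, level filters, row choices and pseudocounts were tried. Python 3.11.15, pandas 2.3.3 and numpy 2.4.6 were used.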

Additional observations from a re-analysis of the deposited data

Results flagged for a closer look

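The genes named here were called at 16 µM against control and have a q-value under 0.05 in the authors' deposited table of 32 against 16 µM. Both comparisons use the same 16 µM samples, so the ratios between the doses are not independent of that choice and are given as values alone. Genes that fell at 16 µM and were higher at 32 than at 16 µM had ratios between the doses of 0.57 for sik1, 0.42 for nr4a1, 0.41 for anxa6, 0.40 for nr1d2a, 0.38 for arrdc3b, 0.37 for klf2a, 0.36 for ankrd9 and zgc:122979, and 0.27 for cebpd in the authors' deposited table. tefa fell at 16 µM and was lower again at 32 µM, with -0.34 between the doses. Rows that rose at 16 µM and were lower at 32 µM were cyp1a at -0.67, mir214a at -1.75 and mir190b at -2.36 in the authors' deposited table.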

How the results depend on the processing

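At a q-value under 0.01 the authors' deposited table leaves 0 called rows, 0 higher and 0 lower, since its smallest q is 0.0219; at a recovered unadjusted p under 0.05 there are 219 genes, 91 higher and 128 lower. A threshold of 0.2 gave 112 rows, 55 higher and 57 lower, and 0.1 gave 89. Keeping rows that name 1 gene gave 45 called genes, 19 higher and 26 lower, because unnamed and pooled rows drop out. Rows of at least 5 FPKM gave 64 calls, 1 row per locus 74, and, chosen after seeing the data, loci of at least 1000 bases 72 and leaving out the mpx row at the cyp1a locus 75. With a pseudocount of 1 or 0.1, 0 of the 45 called genes changed direction. A constant added to both groups cannot reverse a ratio, so that count was fixed in advance. List medians changed sign in 0 of 80 lists with a filter at 1 FPKM or another row choice. Centring on the median row subtracted 0 and so changed nothing. With a pseudocount of 1 the sign changed in 1 list, the endocrine pancreas, from 0.005 to -0.00057. After subtracting the median of rows of similar locus length, chosen after seeing the data, 8 of 80 crossed 0, and no list median moved by over 0.035: hatching gland, fin fold, neutrophils, transmitter systems, fatty acid synthesis, fatty acid oxidation, cell cycle and hox cluster. Replicates could not be left out in turn and the spread between samples could not be computed, because the tables hold group values alone. No paired analysis was possible because the columns carry no replicate numbers. Depth per sample is unknown; under 1 FPKM no row was called, so a gene at such a level that is not called may still differ.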
